A study of Mus musculus with 61 samples.

Results

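Skeletal muscle of 2 inbred mouse strains, NZO and B6, was compared gene by gene: all 8 libraries whose titles begin with NZO against all 8 whose titles begin with B6, 16 of the 61 libraries of 8 strains. NZO is a polygenic obese strain prone to insulin resistance, and B6 is the common laboratory strain from which the mouse reference genome was made. Every library carried the same diet label, 45 percent fat, under a treatment described as high in fat and sugar, so none of these libraries is a lean-diet control and the comparison asks how muscle transcripts differ between the strains on this diet. The labels give no age, sex, dissected muscle or batch, and leave unsaid whether each library is a different animal, so p-values reflect variation among the libraries, some of it possibly technical. In bulk tissue, fewer cells of a type and less RNA per cell cannot be told apart.

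Skeletal muscle is built of slow fibres, which are rich in mitochondria and contract with the slow isoforms of myosin, troponin and the calcium pump, and of fast fibres, which rely more on glycolysis and use a separate set of isoforms. Muscle takes up much of the glucose cleared after a meal, and it is a main site where the carbon skeletons of the branched-chain amino acids leucine, isoleucine and valine are oxidised. Both fibre type and branched-chain amino acid use are widely studied in obesity and insulin resistance.

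The total estimated count was 19.7 to 65.2 M in NZO and 19.2 to 46.1 M in B6. Muscle genes were high in every library: Acta1, skeletal actin, lay between 17300 and 27071 CPM (relative to library size after TMM adjustment, with no division by gene length), and Ckm, muscle creatine kinase, between 10100 and 18318 CPM. In library B6_5 the ribosomal RNA gene Rn18s-rs5 took 46.3% of the counts, against at most 9.32% in the other 15. Libraries numbered 1 to 4 in the titles had 159 to 245 CPM of Xist, a female transcript, in both strains, and those numbered 5 to 8 had 66.8 to 91.9 CPM of Ddx3y, a male transcript, so each strain held 4 libraries of each kind. B6_5 and B6_6 had both, with 23.6 and 30.9 CPM of Xist. Summed lymphocyte markers reached 335 CPM in B6_1 and 157 CPM in B6_6, against 16.6 to 66.5 CPM in the other 14. Summed keratinocyte markers reached 306 CPM in B6_6 and were 57.1 to 77.5 CPM in B6_2, B6_4, B6_5 and B6_8, against 3.91 to 19.6 CPM in the other 11. Summed hepatocyte markers varied widely in both strains, from 92.4 to 2914 CPM.

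Of 16682 genes tested across the transcriptome, 3020 (18.1%) passed an adjusted p of 0.05 (edgeR quasi-likelihood F test, Benjamini-Hochberg), with 1398 (8.38%) higher and 1622 (9.72%) lower in NZO. The difference was at least 1 log2 unit for 925 genes (5.54%), 318 (1.91%) higher and 607 (3.64%) lower. For 827 genes (4.96%) the 8 NZO and 8 B6 libraries did not overlap at all, with NZO above B6 for 2.17% of all genes and below for 2.79%. The median difference of all genes was -0.03 on the log2 scale. Without B6_5, 2712 of 16667 genes passed (16.3%, 7.51% higher and 8.76% lower), without B6_1 and B6_6 2583 of 16768 (15.4%, 7.43% higher and 7.97% lower), and without all 3 of these 2260 of 16913 (13.4%, 6.21% higher and 7.15% lower). In libraries 1 to 4 alone 2257 of 14928 genes passed (15.1%, 7.11% higher and 8.01% lower), and in libraries 5 to 8 alone 995 of 14607 (6.81%, 3.19% higher and 3.62% lower).

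**Figure D1:**
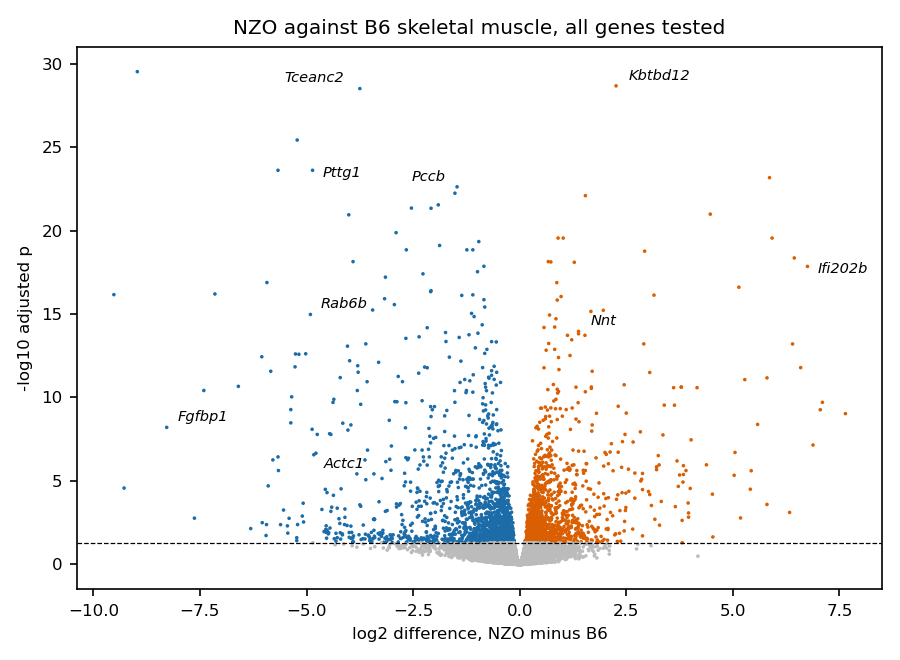
Log2 difference between NZO and B6 (x axis) against -log10 of the adjusted p (y axis) for 16682 genes; orange points are the 1398 genes higher in NZO, blue the 1622 lower, grey those not called, and the dashed line marks an adjusted p of 0.05. Kbtbd12, at 2.26, and Tceanc2, at -3.75, lie near the top on either side.

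The slow-fibre programme was higher in NZO. Of 18 slow-fibre genes tested, 10 rose and none fell (DESeq2 gave the same counts), with a median log2 difference of 0.64, beside 8.38% of all genes higher. These 10 were the slow myosin heavy chains Myh7 and Myh7b, the slow troponins Tnnt1, Tnni1 and Tnnc1, the slow calcium pump Atp2a2, the slow tropomyosin Tpm3, the slow myosin light chains Myl2 and Myl3, and Actn2, an alpha-actinin of the Z-disc. NZO had the highest mean of all 8 strains for every one of the 10 except Actn2, where it was second. Of 18 fast-fibre genes none was called in either direction by edgeR or DESeq2, and 1 had an unadjusted p under 0.05.

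The sequences before the starts of 4 of these slow-fibre genes are shown because they are the annotated promoter windows of genes that rose together. They are the 250 bases upstream of the RefSeq transcript start, 5′ to 3′ on the gene's strand, from RefSeq on GRCm38.p6, the genome of B6. For Myh7 this is chr14:54994627-54994876 on the minus strand, for Myh7b chr2:155610993-155611242 on the plus strand, for Tnnt1 chr7:4515976-4516225 on the minus strand and for Tnnc1 chr14:31208062-31208311 on the plus strand. The start used for Tnnt1 lies 407 bases inside the gene as annotated with the counts, so its whole window is within the gene, and that of Myh7b lies 31 bases inside. Capitals mark the MCAT motif CATTCC, searched on both strands.
Myh7: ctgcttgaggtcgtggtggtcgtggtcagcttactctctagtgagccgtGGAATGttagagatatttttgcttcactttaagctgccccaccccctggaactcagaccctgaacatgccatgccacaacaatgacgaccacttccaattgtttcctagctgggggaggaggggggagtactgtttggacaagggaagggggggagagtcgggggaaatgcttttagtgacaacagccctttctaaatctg
Myh7b: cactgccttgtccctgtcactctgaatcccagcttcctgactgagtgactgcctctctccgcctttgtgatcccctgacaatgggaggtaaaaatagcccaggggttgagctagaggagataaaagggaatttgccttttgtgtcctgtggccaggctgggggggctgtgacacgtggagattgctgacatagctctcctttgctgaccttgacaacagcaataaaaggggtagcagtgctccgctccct
Tnnt1: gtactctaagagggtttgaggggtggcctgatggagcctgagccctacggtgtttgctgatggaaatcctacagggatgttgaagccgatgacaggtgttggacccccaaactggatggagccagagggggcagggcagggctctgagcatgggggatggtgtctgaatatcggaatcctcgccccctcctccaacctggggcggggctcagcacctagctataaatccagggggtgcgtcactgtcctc
Tnnc1: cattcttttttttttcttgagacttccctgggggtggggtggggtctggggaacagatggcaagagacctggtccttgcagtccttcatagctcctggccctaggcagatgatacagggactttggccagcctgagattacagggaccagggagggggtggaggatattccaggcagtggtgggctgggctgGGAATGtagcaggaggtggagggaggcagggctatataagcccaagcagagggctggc
The motif stood once before Myh7 and once before Tnnc1, both times on the opposite strand, and not in the windows of Myh7b and Tnnt1. Of the 16 slow-fibre genes with an entry, 3 held it, and of all 32851 promoter windows of this length 12.6% held it. The third was Myl3, whose RefSeq start lies 21817 bases from the gene start annotated with the counts. The starts used for Tnni1 and Myl2 lie 19987 and 7762 bases away, so these windows may not be those of the transcripts counted. The E-box CANNTG, bound by the myogenic regulators, was found in all 4 windows and in 66.2% of all windows.

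Myh7b ranged from 9.05 CPM over a median of 13.7 to 28.8 CPM in NZO, and from 2.46 over 5.27 to 8.77 CPM in B6. It was the single slow-fibre gene whose strains did not overlap (2.17% of all genes lay wholly higher), and its log2 difference was 1.51 ± 0.21 (SE, n = 8 and 8, edgeR adjusted p = 1.65e-07). Tnnt1, slow troponin T, was 208, 327 and 889 CPM (lowest, median and highest) in NZO and 51.7, 163 and 346 CPM in B6, a log2 difference of 1.28 ± 0.26 (adjusted p = 1.37e-04). The highest NZO libraries thus stood well apart, while the lowest NZO libraries lay among the highest B6 ones. Tnni1, slow troponin I, was 93.8, 144 and 349 CPM in NZO against 20.7, 66.6 and 152 CPM in B6 (log2 1.28 ± 0.26, adjusted p = 1.42e-04). Myh7, the slow myosin of skeletal and heart muscle, was 1050, 1546 and 4196 CPM against 277, 911 and 2044 CPM (log2 1.04 ± 0.26, adjusted p = 0.00217). Atp2a2 was 717, 941 and 2359 CPM against 299, 633 and 1158 CPM (log2 0.92 ± 0.19, adjusted p = 1.60e-04).

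One library of each strain marked the ends of this range: NZO_1 was the highest of the 16 for 9 of the 10 called genes and B6_7 the lowest for 9 of the 10. Without NZO_1 the count was 7, and without B6_5 it was 9 (beside 7.51% of all genes higher), Myl2 then having an adjusted p of 0.106. The count was 5 in a fit of the 16 libraries alone. Among libraries 1 to 4 alone 4 slow-fibre genes passed and among 5 to 8 alone 1, while the log2 difference of Tnnt1 was 1.32 and 1.20 in these sets and that of Myh7b 1.55 and 1.44. Fast myosins overlapped fully: Myh4 had medians of 67121 CPM in NZO and 71924 CPM in B6 (log2 0.01 ± 0.09, adjusted p = 0.982), and Myh2, the myosin of fast oxidative fibres, 3371 and 3906 CPM (log2 -0.20 ± 0.15, adjusted p = 0.375).

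**Figure D2:**
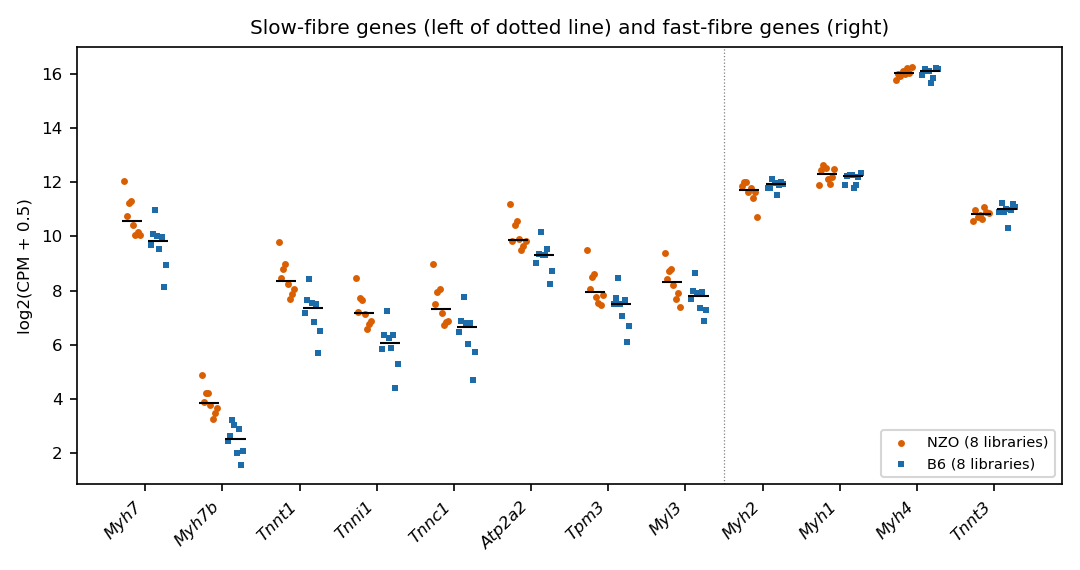
Log2(CPM + 0.5) of 8 slow-fibre genes (left of the dotted line) and 4 fast-fibre genes (right) in each of the 8 NZO libraries (orange circles) and 8 B6 libraries (blue squares), in order of title number, with the median as a bar. The slow genes sit higher in NZO, with NZO_1 on top, and only Myh7b separates the strains fully, while the fast genes overlap.

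Respiratory chain genes differed by small amounts. Of 63 nuclear genes of the respiratory chain, 22 were higher and 1 lower in NZO (beside 8.38% and 9.72% of all genes), with a median log2 difference of 0.15, and the largest rise was that of Ndufb5, a complex I subunit, at 0.49. This count depended on single libraries: it was 9 without B6_5, 11 without B6_1 and B6_6, and 3 without all 3 of these, beside 7.51%, 7.43% and 6.21% of all genes higher. Ndufb9, another complex I subunit, was 169, 202 and 241 CPM in NZO and 109, 180 and 183 CPM in B6 (log2 0.30 ± 0.08, adjusted p = 0.00309), with B6_5 the lowest, and 0.18 (adjusted p = 0.106) without these 3. Of 13 mitochondrial-genome transcripts none rose (1 had an unadjusted p under 0.05, and DESeq2 called none) and 2 fell. Ppargc1a, a coactivator that drives mitochondrial biogenesis, had medians of 71.4 and 63.3 CPM (log2 0.01 ± 0.28, adjusted p = 0.987).

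Of 23 genes of pyruvate dehydrogenase and the citric acid cycle, 8 were higher and 3 lower, beside 8.38% and 9.72% of all genes, and 5 and 3 without B6_5, beside 7.51% and 8.76%. The largest change was in Pdk1, a kinase that switches pyruvate dehydrogenase off, on chromosome 2 (71873224 to 71903858, GRCm38). Pdk1 was 25.4, 28.1 and 30 CPM in NZO and 68.8, 79.8 and 95.3 CPM in B6, a wide gap with no overlap (log2 -1.52 ± 0.08, adjusted p = 5.80e-23). NZO had the lowest mean of the 8 strains. The other kinases were not called: Pdk4, the fasting-induced one, had medians of 1112 and 941 CPM (log2 0.42 ± 0.27, adjusted p = 0.323), and Pdk2 455 and 418 CPM (log2 0.07 ± 0.07). Pdhx, the component that tethers the complex, was higher at 0.39 ± 0.08 (adjusted p = 2.18e-04), and B6 had the lowest mean of all strains.

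Genes for the breakdown of branched-chain amino acids were lower in NZO. Of 18 genes listed for this pathway and for muscle-secreted metabolites, 8 fell and none rose, with a median log2 difference of -0.21, beside 9.72% of all genes lower. By DESeq2 8 fell and none rose too, and none rose at an unadjusted p under 0.05. The 8 act late in the pathway or switch it on: Ivd and Acadsb, the acyl-CoA dehydrogenases of leucine and isoleucine, Mccc1 and Mccc2, both subunits of methylcrotonyl-CoA carboxylase, Pcca and Pccb, both subunits of propionyl-CoA carboxylase, Mut, methylmalonyl-CoA mutase, and Ppm1k, the phosphatase that activates the branched-chain keto acid dehydrogenase. For 5 of the 8 the strains did not overlap (2.79% of all genes lay wholly lower), and NZO ranked last or last but one of the 8 strains for all 8.

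Pccb, on chromosome 9 (100982032 to 101034898), was 15.3, 24.7 and 28.7 CPM in NZO and 60.9, 67.9 and 72.4 CPM in B6. Every NZO library thus lay below 30 CPM in Pccb and every B6 library above 60 CPM (log2 -1.47 ± 0.08, adjusted p = 2.40e-23). Its partner Pcca was 16, 27.6 and 30.1 CPM against 36.4, 41.3 and 43.9 CPM (log2 -0.63 ± 0.10, adjusted p = 3.69e-06). Mccc1 was 14.7, 21.1 and 23.8 CPM against 27.9, 35.4 and 41.3 CPM (log2 -0.80 ± 0.09, adjusted p = 2.76e-10). Mccc2 fell less and overlapped slightly, with 12, 17.7 and 21 CPM against 19.8, 24.2 and 29.0 CPM (log2 -0.49 ± 0.10, adjusted p = 2.69e-04). Ivd was 38.1, 66.4 and 85.0 CPM against 95, 106 and 127 CPM (log2 -0.72 ± 0.15, adjusted p = 1.70e-04). Ppm1k was 8.47, 13.0 and 14.1 CPM against 16, 19.3 and 24.4 CPM (log2 -0.68 ± 0.15, adjusted p = 4.79e-04). NZO_8 was the lowest library for Pccb and for Ivd.

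The first steps of the pathway were not called. Of the 18 genes listed, 10 were not called, and 6 of the 18 had a positive difference. The uncalled genes not named here were not sorted by step. Bcat2, the mitochondrial aminotransferase, had medians of 44.8 and 38.0 CPM (log2 0.14 ± 0.16, adjusted p = 0.635). The keto acid dehydrogenase subunits had log2 differences of 0.12 ± 0.08 for Bckdha (adjusted p = 0.316), 0.01 ± 0.15 for Bckdhb (0.973) and -0.47 ± 0.20 for Dbt (0.104). The count of 8 was the same when any 1 of the 16 libraries was left out, and without B6_1, B6_5 and B6_6. It was 9 in libraries 1 to 4 alone and 7 in libraries 5 to 8 alone.

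**Figure D3:**
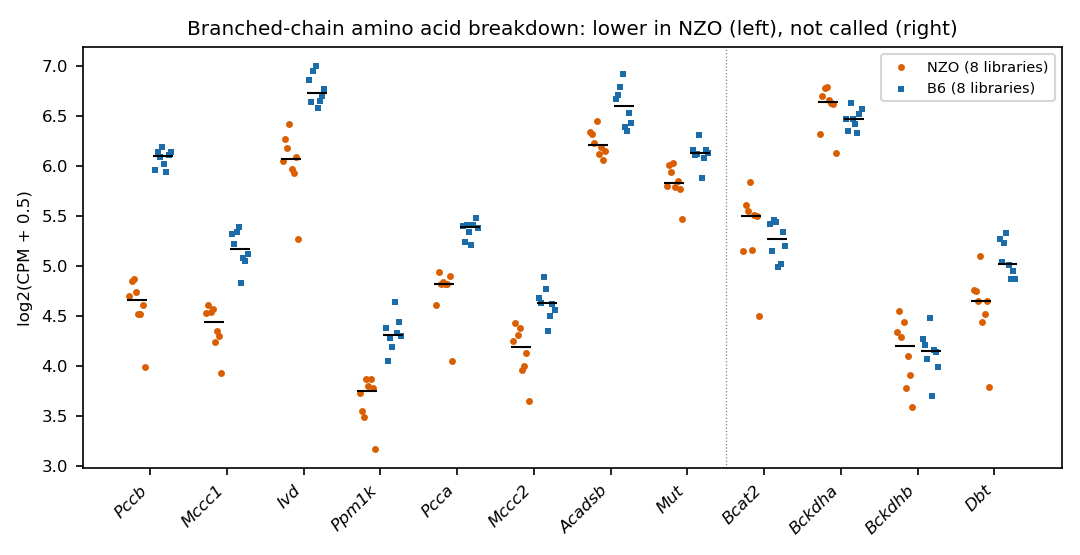
Log2(CPM + 0.5) of the 8 branched-chain amino acid genes lower in NZO (left of the dotted line) and 4 early-step genes not called (right), in each of 8 NZO (orange circles) and 8 B6 libraries (blue squares), with medians as bars. Pccb shows the widest gap, from at most 28.7 CPM in NZO to at least 60.9 CPM in B6.

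Few insulin signalling genes were called. Of 27 genes of glucose uptake and insulin signalling 1 rose and 1 fell, beside 8.38% of all genes higher and 9.72% lower. Mtor, the growth kinase, was 79.9, 95 and 101 CPM in NZO and 58.9, 67.9 and 80.1 CPM in B6, overlapping only at the margin (log2 0.45 ± 0.07, adjusted p = 2.81e-06). Akt2, the insulin-activated kinase, had medians of 192 and 238 CPM (log2 -0.26 ± 0.06, adjusted p = 9.99e-04). Slc2a4, the insulin-responsive glucose transporter, had medians of 298 and 356 CPM and NZO ranked last of the 8 strains, but the difference did not pass (log2 -0.21 ± 0.10, adjusted p = 0.143). Insr, the insulin receptor, and Hk2, hexokinase, had adjusted p = 0.676 and 0.357.

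Single fuel-sensing genes differed. Of 19 genes of the PPAR and fasting response 1 was lower and 0 higher, and DESeq2 called 2 lower and 1 higher. Of 17 genes of creatine kinase and the adenylate energy buffer 3 were lower and 1 higher. Of all genes, 9.72% were lower and 8.38% higher. Ppara, the nuclear receptor of fasting and fat oxidation, was 6.69, 9.88 and 13.5 CPM in NZO and 16, 19.9 and 21.8 CPM in B6, with no overlap (log2 -0.98 ± 0.15, adjusted p = 1.42e-06), and NZO was the lowest of the 8 strains. Prkag2, a regulatory subunit of AMP-activated kinase, was 4.83, 6.09 and 6.99 CPM against 8.33, 10.1 and 12.2 CPM (log2 -0.73 ± 0.10, adjusted p = 1.05e-07). Ampd1, muscle AMP deaminase, was 567, 695 and 770 CPM against 857, 954 and 1363 CPM (log2 -0.59 ± 0.15, adjusted p = 0.00254). Neither gene overlapped between the strains. Other subunits of AMP-activated kinase went both ways: Prkab1 was higher, with means of 8.6 CPM in NZO and 6.96 CPM in B6. Prkab2 was lower, with means of 320 and 431 CPM. Of 26 genes of fat uptake and oxidation 2 rose, a share near the 8.38% of all genes: Acadl, the long-chain acyl-CoA dehydrogenase (log2 0.42 ± 0.10, adjusted p = 7.98e-04), and Cd36, the fatty acid transporter (log2 0.40 ± 0.10, adjusted p = 0.00190), and none fell, also not by DESeq2 or at an unadjusted p under 0.05. Cpt1b, the gate of mitochondrial fat entry, had medians of 289 and 287 CPM (adjusted p = 0.868).

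Tendon and matrix genes that were called were higher in NZO. Of 12 tendon genes 8 rose and none fell, with a median of 0.64 and beside 8.38% of all genes higher, and of 22 fibroblast and matrix genes 6 rose and none fell, with a median of 0.42; DESeq2 called 8 and 8 higher and none lower, and none was lower at an unadjusted p under 0.05. The tendon count was 8 without any 1 library but 3 without B6_1, B6_5 and B6_6, beside 6.21% of all genes higher. Kera, the keratan sulfate proteoglycan keratocan, was 13.7, 18.8 and 25.1 CPM in NZO and 4.48, 6.42 and 11.4 CPM in B6, with no overlap (log2 1.43 ± 0.30, adjusted p = 2.98e-04). Comp, cartilage oligomeric matrix protein, was 26.9, 36.0 and 66.6 CPM against 13.7, 18.6 and 26.8 CPM, just apart (log2 0.99 ± 0.28, adjusted p = 0.00891). Cilp2 had medians of 27.6 and 7.10 CPM (log2 1.56 ± 0.27, adjusted p = 1.03e-05), with NZO_8 alone at 7.10 CPM inside the B6 range. Col1a1, the main fibrillar collagen chain, had medians of 453 and 194 CPM (log2 1.12 ± 0.35, adjusted p = 0.0165).

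Of 19 measures per library, 7 marker sums differed between the strains. The tendon sum was 596 to 1130 CPM in NZO and 361 to 643 CPM in B6 (exact two-sided permutation test of 8 against 8, adjusted over 19 measures, p = 0.00689), and the fibroblast sum 2289 to 4010 CPM against 2282 to 2936 CPM (exact adjusted p = 0.00709). The endothelial sum was 469 to 605 CPM against 452 to 498 CPM (exact adjusted p = 0.00689), and the smooth muscle and pericyte sum 2897 to 5640 CPM against 2330 to 3233 CPM (exact adjusted p = 0.0182). This last sum was mostly Des, the gene of desmin, with means of 2813 CPM in NZO and 2180 CPM in B6. Its other members were not summed apart from Des. The erythrocyte sum was 311 to 474 CPM against 218 to 374 CPM (exact adjusted p = 0.00689), and the bone and cartilage sum 3.19 to 5.94 CPM against 1.58 to 4.45 CPM (exact adjusted p = 0.00709). The keratinocyte sum went the other way, with 3.91 to 19.6 CPM against 7.31 to 306 CPM (exact adjusted p = 0.0219). NZO_8 had the highest endothelial and smooth muscle sums of the NZO libraries and their lowest tendon and fibroblast sums. Of its 5640 CPM in the smooth muscle and pericyte sum, Des was 5032 CPM. The part of tissue makeup in the matrix and slow-fibre differences was not tested.

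Immune gene lists went different ways, and the lymphocyte calls stood on 2 B6 libraries. Of 14 lymphocyte markers 11 were lower and none higher, beside 9.72% of all genes lower, but without B6_1 and B6_6, the libraries with the highest lymphocyte sums, none of the 14 was called in either direction and none had an unadjusted p under 0.05. Without B6_1 alone 1 was called. Of 17 macrophage marker entries 3 were higher, Cd14, Lyve1 and Mrc1, and none lower (median log2 0.33, beside 8.38% of all genes higher), and 5 were higher and none lower without B6_1 and B6_6 (7.43% of all genes higher). Without NZO_8, the highest NZO library for Cd14, Lyve1 and Mrc1, none of these 3 passed. None of the macrophage markers was lower by DESeq2 or at an unadjusted p under 0.05. The macrophage sum, 152 to 456 CPM in NZO and 142 to 306 CPM in B6, did not pass (exact permutation adjusted p = 0.684). Of 23 genes of the major histocompatibility complex (MHC) and its presentation, 8 were lower and none higher, beside 9.72% of all genes lower, and 3 were lower without B6_1 and B6_6, beside 7.97%. DESeq2 called 9 of these MHC genes lower and none higher. H2-K1, a classical class I chain, was 15.0, 30.2 and 56.9 CPM in NZO and 48.9, 59.1 and 144 CPM in B6 (log2 -1.15 ± 0.26, adjusted p = 7.34e-04), and its difference without B6_1, B6_5 and B6_6 was -0.81 (adjusted p = 0.0370). H2-Ab1, a class II chain, was 3.5, 5.73 and 8.04 CPM against 10.8, 12.8 and 66.1 CPM (log2 -1.98 ± 0.53, adjusted p = 0.00515), and -1.17 (adjusted p = 0.181) without those 3. The strains carry different MHC haplotypes, and the effect of allele differences on the counting of reads was not tested. B2m, the shared class I light chain outside the MHC, had medians of 86.0 and 78.5 CPM (log2 0.00 ± 0.18, adjusted p = 0.997).

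Single interferon-induced genes went opposite ways. Ifi202b, a DNA-binding member of the Ifi200 family, on chromosome 1 (173962568 to 173982744), was 3.42, 6.24 and 13.2 CPM in NZO and at most 0.307 CPM in B6 (log2 6.75 ± 0.45, adjusted p = 1.41e-18). Mx1, an antiviral GTPase, had medians of 1.91 and 0.269 CPM (log2 1.87 ± 0.43, adjusted p = 0.0010, and 0.96 with the counts of Mx2 added). Mx2 is its near-identical copy, so that reads can be split between them and both are uncertain. Mx2 was 0 to 0.206 CPM in NZO and 0.325 to 1.13 CPM in B6 (log2 -3.05 ± 0.46, adjusted p = 5.00e-07). Gvin1, an interferon-induced very large GTPase, had medians of 5.20 and 25.2 CPM (log2 -2.31 ± 0.49, adjusted p = 3.26e-04). Gvin1 has near-identical copies too, and with their counts added its log2 difference was -1.77. Of 25 interferon-stimulated genes listed 1 was higher and 4 lower, and of 25 guanylate-binding, Irg and Ifi200 genes 1 was higher and 6 lower, beside 8.38% of all genes higher and 9.72% lower. Without B6_1 and B6_6 these counts were 2 higher and 2 lower, and 1 higher and 4 lower, beside 7.43% and 7.97%.

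The largest single-gene differences were set beside the other 6 strains, which shows which of the 2 strains stood apart. Among the 3020 called genes, NZO alone had the most extreme of the 8 strain means, in the direction of the difference, for 877 (29.0%), B6 alone for 788 (26.1%), both at opposite ends for 169 (5.6%) and neither for 1186 (39.3%). Differences of the pair were therefore not mainly those of one strain.

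B6 stood apart for Pttg1, securin, which holds sister chromatids together until division (chromosome 11, 43420250 to 43426251). Its B6 libraries were 23.7, 28.3 and 31.3 CPM and its NZO libraries 0.472, 0.955 and 1.89 CPM, far below (log2 -4.86 ± 0.24, adjusted p = 2.46e-24), with the other 6 strain means between 0.339 and 0.962 CPM. Rab6b, a GTPase of Golgi transport, was 11.2, 12.8 and 16.3 CPM in B6 and 0.234, 0.440 and 0.668 CPM in NZO (log2 -4.91 ± 0.39, adjusted p = 1.06e-15), with the other strains at 0.166 to 0.697 CPM. Kbtbd12, on chromosome 6 (88545114 to 88637950), went the other way: B6 was 27.6, 32.8 and 36.9 CPM, NZO 134, 154 and 183 CPM, and the others 147 to 191 CPM (log2 2.26 ± 0.09, adjusted p = 2.15e-29). Nnt, the mitochondrial transhydrogenase that makes NADPH and carries a deletion in some B6 substrains, was 40.0, 48.9 and 71.1 CPM in B6 and 109, 128 and 142 CPM in NZO (log2 1.38 ± 0.11, adjusted p = 1.09e-14). In these genes NZO looked like the other strains.

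NZO stood apart for Tceanc2 (chromosome 4, 107134155 to 107179116), with 0.692, 0.886 and 1.34 CPM against 10.3, 12.4 and 13.6 CPM in B6 and 6.16 to 14.3 CPM in the other strain means (log2 -3.75 ± 0.14, adjusted p = 3.14e-29). Fgfbp1, a carrier that releases fibroblast growth factors from the matrix, had 5 counts in all 8 NZO libraries, in 2 of them, and 1620 counts in B6, a ratio of 371 (95% exact binomial interval 158 to 1143, counting error only). The other strain means of Fgfbp1 were 0.266 to 4.06 CPM, between NZO and B6. Ankrd1, a stretch-responsive protein of the titin complex, was 24.3, 43.2 and 52.2 CPM in NZO and 4.91, 9.55 and 11.9 CPM in B6 (log2 2.13 ± 0.48, adjusted p = 7.65e-04). Their means, 40.4 and 9.19 CPM, were at opposite ends of the 8 strains, with the other strain means at 9.98 to 32.6 CPM. Chaf1a, a subunit of chromatin assembly factor, was 5.26, 6.79 and 7.42 CPM against 0.409, 1.19 and 1.95 CPM (log2 2.45 ± 0.25, adjusted p = 1.73e-11). Amotl1, angiomotin-like, was 1111, 1315 and 1549 CPM against 612, 701 and 763 CPM (log2 0.91 ± 0.10, adjusted p = 4.32e-11).

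**Figure D4:**
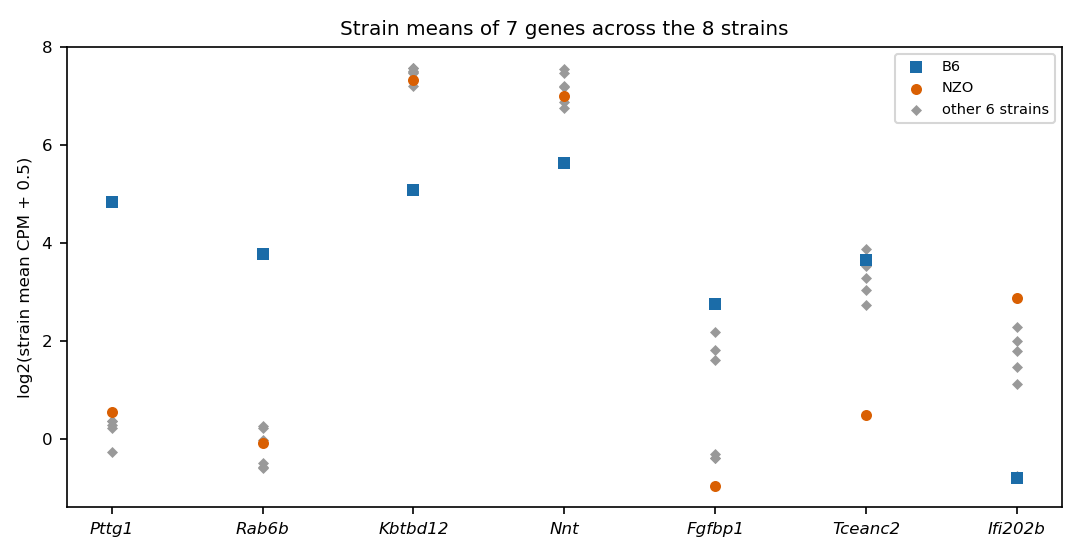
Log2(strain mean CPM + 0.5) of 7 genes in NZO (orange circles), B6 (blue squares) and the other 6 strains (grey diamonds). B6 lies apart for Pttg1, Rab6b, Kbtbd12 and Nnt, and NZO for Tceanc2; for Fgfbp1 and Ifi202b the pair spans the range of the strains.

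Among other strongly lower genes, Pla2g7, the platelet-activating factor acetylhydrolase, was 6.38, 8.49 and 11 CPM in NZO and 51.5, 64.8 and 78.0 CPM in B6 (log2 -2.94 ± 0.22, adjusted p = 2.73e-16). Ostn, encoding the muscle-secreted peptide musclin, was 4.53, 8.08 and 20.5 CPM against 30.9, 47.2 and 107 CPM (log2 -2.61 ± 0.39, adjusted p = 4.33e-07). Asb15, a muscle protein with ankyrin repeats and a SOCS box, was 22.2, 24.0 and 29.8 CPM against 90.6, 115 and 144 CPM (log2 -2.23 ± 0.21, adjusted p = 1.50e-12). None of these overlapped between the strains. Mstn, the growth inhibitor myostatin, was lower by less, with medians of 48.1 and 70.0 CPM (log2 -0.52 ± 0.15, adjusted p = 0.00893). Of 10 satellite cell genes 3 were lower, beside 9.72% of all genes, and none higher (nor higher by DESeq2 or at an unadjusted p under 0.05). The summed level of the list, 453 to 747 CPM in NZO and 551 to 709 CPM in B6, did not pass (exact permutation adjusted p = 0.335). The 3 were Mstn, Pax7 and Calcr. Pax7, the factor that marks muscle stem cells, differed by -0.57 ± 0.17 (adjusted p = 0.0141). Calcr, a receptor of quiescent satellite cells, differed by -1.72 ± 0.34 (adjusted p = 1.03e-04). Calcr was near the floor, with a mean under 1 CPM in both strains. Pax7 had means of 1.71 CPM in NZO and 2.53 CPM in B6, so Pax7 and Calcr were small parts of the summed level.

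Genes with near-identical copies were less certain, because counting can split reads between copies. Myh6, the atrial myosin, was 31.1, 45.4 and 130 CPM in NZO and 1.33, 2.58 and 3.79 CPM in B6 (log2 4.47 ± 0.25, adjusted p = 1.04e-21). Its near-identical copy is Myh7, whose level is far higher in both strains, so that a sum of both cannot show whether reads were split. Hba-a1, an alpha-globin, differed by 6.40 ± 0.56 alone and by 0.67 (adjusted p = 0.0588) with its copies. Pgk1, a glycolytic kinase, differed by -1.07 ± 0.09 alone and by -0.05 (adjusted p = 0.768) with copies, whereas Gapdh, another glycolytic enzyme, differed by 1.12 ± 0.09 alone and 1.11 with them. Hist2h2aa2, a histone gene, differed by 5.05 alone and -0.29 (adjusted p = 0.338) with copies.

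Some strain differences depended on the title number, along which Xist and Ddx3y split. The interaction was tested after seeing the data, in the 16 libraries, and 80 of 14716 genes (0.544%) passed, 53 (0.360%) with a more positive NZO minus B6 difference in libraries 1 to 4 and 27 (0.183%) with a more negative one. NZO libraries 1 to 4 and B6 libraries 5 to 8 carry higher ORSAM running numbers in their titles than the other 8 libraries, so this interaction and a difference between low and high ORSAM numbers cannot be told apart. Actc1, cardiac actin, which is high in developing muscle, was 304 to 387 CPM in B6_1 to B6_4 and 35.5 to 50.8 CPM in B6_5 to B6_8, against 6.89 to 34.9 CPM in all NZO libraries. Its difference was -4.33 in libraries 1 to 4 and -1.12 in libraries 5 to 8 (interaction -3.20, adjusted p = 0.0167). Gadd45a, a stress gene induced in denervated muscle, had means of 18.1 and 17.1 CPM in NZO and B6 libraries 1 to 4, but 29.8 and 7.33 CPM in libraries 5 to 8 (interaction -1.95, adjusted p = 0.00177).

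Lep, the fat-cell hormone leptin, was 111, 67.1, 64.5 and 66.6 CPM in NZO_1 to NZO_4 and 11.8, 13.8, 18.3 and 5.75 CPM in NZO_5 to NZO_8. In B6 it was 8.84 to 16.9 CPM in libraries 1 to 4 and 12.5 to 15.8 CPM in libraries 5 to 8 apart from B6_6 at 51.9 CPM. Over all libraries Lep was not called (log2 1.31 ± 0.60, adjusted p = 0.125), while its difference was 2.64 in libraries 1 to 4 and -0.96 in libraries 5 to 8 (interaction 3.60, adjusted p = 0.0167). Of 14 adipocyte markers tested for the interaction, Lep and Cidec, a lipid droplet protein, passed, and Adipoq, adiponectin, did not (1.25, adjusted p = 0.252). Of 24 lipid synthesis genes Dgat2, the last enzyme of triglyceride synthesis, Scd2, a desaturase, and G0s2, a lipase inhibitor, passed. All 3 changed sign, from 1.03, 0.49 and 1.01 in libraries 1 to 4 to -0.85, -0.80 and -0.63 in libraries 5 to 8. Dgat2 had means of 83.0 and 40.3 CPM in NZO and B6 libraries 1 to 4, and 33.5 and 60.3 CPM in libraries 5 to 8 (interaction 1.89, adjusted p = 0.00982). Summed adipocyte markers were 3700 to 5103 CPM in NZO_1 to NZO_4, 2984 to 3320 CPM in NZO_5 to NZO_8, 3128 to 4192 CPM in B6_1 to B6_4 and 1903 to 2439 CPM in B6_5 to B6_8. Adipoq and Lep were small parts of this sum, with means of 34.2 and 44.9 CPM in NZO and 31.8 and 18.1 CPM in B6. The part of adipocyte markers in these differences was not tested.

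**Figure D5:**
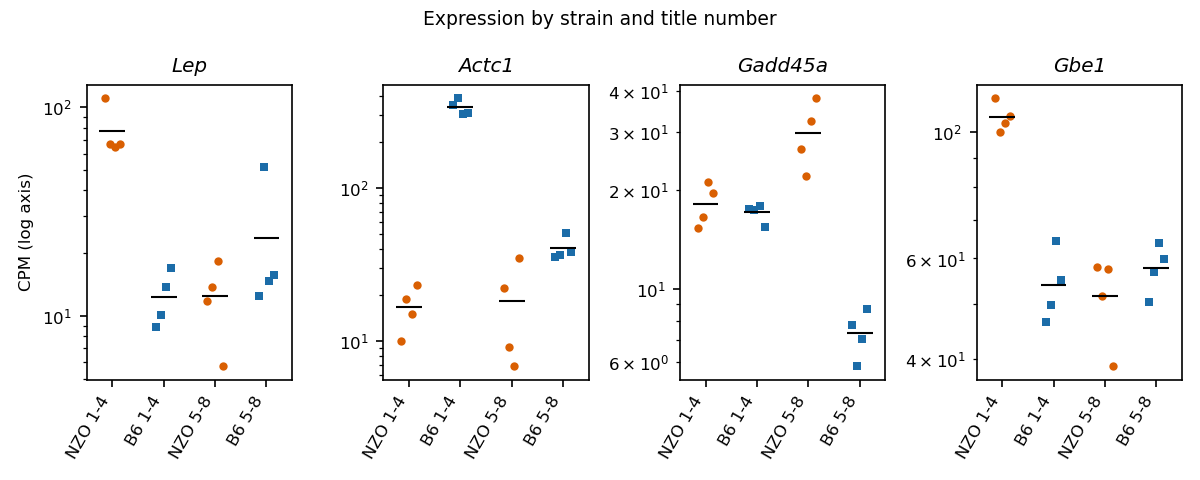
CPM on log axes of Lep, Actc1, Gadd45a and Gbe1 (glycogen branching enzyme) in each NZO (orange circles) and B6 library (blue squares), split by title numbers 1 to 4 and 5 to 8, 4 libraries each, with group means as bars. Lep and Gbe1 are high in NZO libraries 1 to 4, Actc1 in B6 libraries 1 to 4, and Gadd45a is low in B6 libraries 5 to 8.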

How the data were processed

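Polyadenylated RNA of frozen tissue was sequenced after KAPA mRNA HyperPrep library construction, per the labels' protocols. Per the submitters' processing notes, the build was GRCm38 and DESeq2 was used; which aligner, counter, annotation and strand setting were used is not given in the sources used here. The authors deposited a table of expected counts for 19462 genes in 61 libraries, and variance-stabilised values on a log2 scale, with 0 unmatched columns.

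Expected counts were rounded, since whole counts had been assumed when the test was chosen. Genes were tested with edgeR 4.0.16 (R 4.3.3): filterByExpr, TMM, 1 quasi-likelihood fit of all 61 libraries with strain as factor (53 residual degrees of freedom), contrast NZO minus B6, Benjamini-Hochberg over 16682 genes, threshold 0.05. Every adjusted p of a gene is from this test unless another is named; SE is the size of the log2 difference over the root of its F. Sample measures used exact permutation (12870 labellings). Alternatives were DESeq2 1.42.0, limma 3.58.1, other filters, subsets and covariates. In simulated counts (16425 genes), 100 genes were changed 2-fold and 100 were changed 1.5-fold in NZO, and all others were left equal across strains. Of these, 65% and 60% were recovered, and 11 calls (8.09% of calls) were false. Far fewer genes were changed than the 18.1% called here, so these rates need not hold for this comparison. Copies were found with BLAST 2.17.0 (at least 95% identity over 200 bases and 50% of the shorter transcript).

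Named genes passed the threshold. Of those with at least 5 CPM in the higher strain and no overlap, the 12 highest and 12 lowest without copies and 3 of each with copies were taken. Overlap was allowed for the 6 largest CPM differences each way and for up to 3 members each way of each list (at least 1 CPM). Anchor and known-variant genes were added whatever their result. Not all are printed. Dgat2, Scd2, G0s2, Cidec, and the genes named as not called, were picked after their values were seen. Myh7, Atp2a2, Pcca, Mccc2, Ppm1k, H2-K1, Mx2 and Calcr were called but also lay outside the rule. So did the called list members Tnnc1, Tpm3, Myl2, Myl3, Acadsb and Mut. Some genes that the rule names are not reported here. Members and lists were chosen with earlier results of these data known.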

Additional observations from a re-analysis of the deposited data

Results flagged for a closer look

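Within each strain, the gap between the most extreme library and its nearest neighbour was compared with the strain's whole range (Dixon's test, on log2(CPM + 0.5) for genes, 342 tests of 8 libraries), which by chance marks about 1 in 20 groups. The libraries so marked are given with their own level. NZO_5 was the lowest NZO library for Chaf1a (5.26 CPM). B6_5 was the highest B6 library for Rn18s-rs5 (1110948 CPM), Lars2 (164394 CPM), mt-Rnr2 (86982 CPM), mt-Rnr1 (68473 CPM), Gm42418 (3647 CPM), Gm26917 (3509 CPM), the Rn18s-rs5 share (46.3%) and the count share of its 20 top genes (75.3%), and the lowest B6 library for Gstm7 (0.819 CPM), Idh3b (179 CPM), Ndufb9 (109 CPM) and Zfp69 (0 CPM). B6_1 was the highest B6 library for Ighg2c (48.1 CPM). NZO_3 was the highest NZO library for Tceanc2 (1.34 CPM) and H2-Q7 (3.36 CPM), and the lowest NZO library for Ppp1r3a (309 CPM). NZO_4 was the lowest NZO library for Nxpe4 (0.493 CPM) and Stard4 (5.88 CPM). B6_6 was the highest B6 library for Hist2h2aa2 (1.61 CPM), Hmgcs1 (54.4 CPM) and Lep (51.9 CPM). NZO_1 was the highest NZO library for mt-Nd2 (9893 CPM), Lor (0.346 CPM), Dmkn (1.57 CPM) and Krt14 (1.32 CPM), and the lowest NZO library for Acta1 (20399 CPM), Mtor (79.9 CPM), Ampd1 (567 CPM) and Cacng1 (128 CPM). NZO_8 was the highest NZO library for Des (5032 CPM), Gpi1 (1205 CPM), Lcn2 (8.31 CPM), Cd14 (6.45 CPM), Lyve1 (24.1 CPM), Mrc1 (54.1 CPM), Esam (37.0 CPM), the macrophage marker sum (456 CPM) and the smooth muscle and pericyte sum (5640 CPM), and the lowest NZO library for Pdhx (48.8 CPM), Sdha (450 CPM), Pccb (15.3 CPM), Ivd (38.1 CPM), Cilp2 (7.10 CPM), Slc2a4 (180 CPM) and the fibroblast and matrix sum (2289 CPM). NZO_6 was the lowest NZO library for Nnt (109 CPM). B6_3 was the highest B6 library for Nnt (71.1 CPM). B6_7 was the lowest B6 library for Arntl (7.13 CPM). NZO_2 was the lowest NZO library for the bone and cartilage sum (3.19 CPM). The CPM of Rn18s-rs5 in B6_5 exceeds what its count share alone gives, because TMM scaled this library to 0.417 of its total count.

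The NZO minus B6 difference differed between libraries 1 to 4 and libraries 5 to 8 for 6 genes reported or named by rule, by an edgeR interaction term in the 16 libraries chosen after seeing the data. The interaction was 1.35 on the log2 scale for Tmem37 (adjusted p = 0.0430). The interaction was -3.20 on the log2 scale for Actc1 (adjusted p = 0.0167). The interaction was -1.95 on the log2 scale for Gadd45a (adjusted p = 0.00177). The interaction was 1.15 on the log2 scale for Gbe1 (adjusted p = 0.00982). The interaction was 0.68 on the log2 scale for Camk2b (adjusted p = 0.0430). The interaction was 3.60 on the log2 scale for Lep (adjusted p = 0.0167).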

How the results depend on the processing

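Without 1 library, the calls across genes numbered 2707 to 2963, 1252 to 1372 of them higher and 1422 to 1611 lower. Member counts ranged over 7 to 11 for slow fibre, 9 to 26 for nuclear respiratory chain, 5 to 9 for MHC, 8 to 8 for branched-chain amino acids, 1 to 11 for lymphocyte and 8 to 8 for tendon. The lowest counts came without NZO_1 (slow fibre), without B6_5 (respiratory chain, also 10, 11, 14 and 14 without NZO_2, NZO_3, NZO_4 and B6_1), without B6_1 or B6_6 (MHC, 5 each) and without B6_1 (lymphocyte; 7 without NZO_2, NZO_3 or NZO_5). Among the lower ORSAM numbers alone 1994 genes passed (1002 lower), among the higher 1831 (818 higher, 1013 lower) and in libraries 5 to 8 alone 995 (466 higher, 529 lower), all with fewer libraries. The lower ORSAM numbers set NZO_5 to NZO_8 against B6_1 to B6_4, and the higher set NZO_1 to NZO_4 against B6_5 to B6_8. Within either set, strain and the Xist and Ddx3y split cannot be told apart.

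Slow fibre gave 5 in the 16 libraries and with low or high ORSAM number as a factor, 1 among the lower numbers, and 4 and 1 in libraries 1 to 4 and 5 to 8. The respiratory chain gave 7 in the 16 libraries, with the ORSAM factor, with marker sums as covariates and in libraries 1 to 4, 3 among lower or higher ORSAM numbers, 1 in libraries 5 to 8, 9 with title number as a factor, 11 without B6_1 and B6_6 and 3 without B6_1, B6_5 and B6_6. MHC gave 5 with limma, among lower ORSAM numbers and with marker sums, 4 in libraries 1 to 4, and 3 among the higher, in libraries 5 to 8 and without B6_1 and B6_6 (also without B6_5). Branched-chain amino acids gave 5 among higher ORSAM numbers. Tendon gave 1 among lower ORSAM numbers, 5 in libraries 1 to 4 and 3 without B6_1, B6_5 and B6_6. Lymphocyte gave 1 among higher ORSAM numbers and 0 in the 16 libraries, with limma, the stricter filter, the ORSAM factor, marker sums, the title number, lower ORSAM numbers, libraries 1 to 4 or 5 to 8, and without B6_1 and B6_6. Some of these fits tested fewer samples or genes, and the cause of the changed counts was not tested.

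With the title number as a replicate block in the 16 libraries, 2345 genes passed, with 8 respiratory chain and 0 lymphocyte members, beside 2704 without the block. The numbers did not pair the samples: correlations of same-numbered deviations ran from -0.191 to 0.592, and 2 of 8 NZO libraries correlated best with their own number.

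Reversed differences were: Hist2h2aa2 -0.29 with copies; without B6_5, Rn18s-rs5 0.11, Lars2 0.13, Gm42418 0.24 and Gm26917 0.55 (down to -1.70, -2.57, -2.58 and -3.01 without another library); without B6_1, B6_5 and B6_6, 0.13, 0.21, 0.37 and 0.73 in the same order; among lower ORSAM numbers, Rn18s-rs5 0.52, Lars2 0.51, mt-Rnr1 0.12, Gm42418 0.49, Gm26917 0.40, Gbe1 -0.06, Hspb6 -0.01, Hlf 0.09 and Adipoq -1.40; by DESeq2, Lars2 0.12, Gm42418 0.23 and Gm26917 0.51; Gm26917 0.19 with the block and 0.48 in libraries 1 to 4; in libraries 5 to 8, Gbe1 -0.16, Hmgcs1 -0.09, Hspb6 -0.01 and Camk2b -0.12. Of 140 named genes called, 80 passed in the same direction under every setting run outside subsets of the libraries. Genes at a few counts are limited by depth.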

Other observations

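Structural and stress genes that the comparisons above leave out also differed. Dysf, dysferlin, which reseals torn muscle membrane, was 125, 133 and 139 CPM in NZO and 61, 73.1 and 84.7 CPM in B6 with no overlap (log2 0.85 ± 0.09, edgeR adjusted p = 1.28e-10). Myom2, a protein of the sarcomere's M-band, was 2046, 2292 and 2450 CPM against 1282, 1671 and 1986 CPM, also apart (log2 0.48 ± 0.10, adjusted p = 3.27e-04). Hspa1a, an inducible heat shock protein, had medians of 55.1 and 13.9 CPM (log2 1.59 ± 0.54, adjusted p = 0.0297), and an adjusted p of 0.0512 without B6_5. The heat shock and redox list of 25 held 3 higher genes and 3 lower ones (beside 8.38% and 9.72% of all genes), the lower ones including the heat shock genes Hsph1 (log2 -0.42 ± 0.14, adjusted p = 0.0251) and Hspb8 (log2 -0.39 ± 0.14, adjusted p = 0.0407). Without NZO_8 neither Hsph1 nor Hspb8 passed (adjusted p = 0.0541 and 0.0652), and Hspb8 reached 0.0829 without NZO_1. Cfd, the fat-cell protease adipsin, was 13.8 to 27.8 CPM in NZO and 29.9 to 95.2 CPM in B6 (log2 -1.35 ± 0.45, adjusted p = 0.0284), and an adjusted p of 0.0798 without B6_1, B6_5 and B6_6. Among circadian clock genes, Hlf and Arntl were lower, with log2 differences of -0.73 each (edgeR adjusted p = 0.0509 and 0.0718 without B6_5).

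Called genes were unevenly spread along the genome. In 218 windows of 5 Mb with at least 30 tested genes, the share called ran from 2.38% to 46.9%, with a median of 16.1%. In 5 windows it was over 40% and in 5 under 5%.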
